A study of Mus musculus with 36 samples.

Results

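The step examined here was the change in gene expression between day 5 and day 7 of reprogramming in Zfp266 knockout (KO) cells. It was measured by setting the 3 KO libraries of day 7 against the 3 KO libraries of day 5, which are 6 of the 36 RNA-seq libraries of the series. The study turned mouse embryonic fibroblasts (MEFs) into induced pluripotent stem cells (iPSCs) and profiled MEFs, cells at days 3, 5 and 7 of reprogramming, iPSCs and embryonic stem cells (ESCs), each with and without a knockout of Zfp266. Every group had 3 libraries. The 12 libraries of day 5 and day 7, KO and wild type (WT), came from MEFs that carry Cas9 under a constitutive promoter, a doxycycline-inducible MKOS cassette (Myc, Klf4, Oct4, Sox2) linked to an mOrange reporter, and a Nanog-GFP reporter. KO cells had received a lentiviral guide RNA to Zfp266 before reprogramming began in ESC medium with doxycycline and vitamin C, and WT cells a non-targeting control guide. The cassette-bearing MEFs were seeded among a large excess of WT MEFs of the 129 strain without the cassette, and mOrange+ cells were sorted for RNA. The starting MEFs derive from chimeric embryos of an engineered ESC clone. The KO cells of day 5 and day 7 are a population in which each cell carries its own edits, not a clone. KO MEFs and KO iPSCs are used below as references. The KO MEFs stayed in MEF medium after transduction, without induction of the cassette. The KO iPSCs were clones grown in ESC medium with puromycin and selected to be independent of the transgene. These references thus differ from the reprogramming days in treatment as well as in stage. The labels do not say whether the 3 replicates of a group were separate transductions or cultures. The p-values given below therefore rest on a spread between replicate libraries that may be technical. For the gene tests this spread was estimated over all 36 libraries, not only the 6 compared.

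The factors encoded by the cassette remove the fibroblast programme early and switch on the cells' own pluripotency network late. That network is held by transcription factors such as Nanog, Esrrb and Tfcp2l1, which bind each other's genes, and its arrival is accompanied by chromatin regulators typical of ESCs, among them Tet1, Dnmt3b and the subunits of Polycomb repressive complex 2 (PRC2). Zfp266 encodes a Krüppel-associated box (KRAB) zinc finger protein, a class of DNA-binding proteins most of which repress transcription.

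The edited gene lies on chromosome 9 (GRCm38.p6, chr9:20495068-20521417, minus strand). The study designed several guides to it and starred sgR3 in its vector list as the guide of its detailed experiments. Which guide was used for these libraries is not stated outright. The sgR3 target is shown because the knockout is built on such a site, with the PAM in capitals, 5′ to 3′ in the sense of the transcript:
sgR3 site: cagaagaatctataccgagAGG
The site spans chr9:20505088-20505109 and lies in coding sequence, in exon 6 of 9 in 2 annotated transcripts and in exon 4 of 7 in another. Zfp266 itself was at 1507, 1646 and 1707 normalised counts in the day 5 KO libraries and at 1552, 1557 and 1501 in the day 7 KO libraries. The libraries of both days overlapped, and the change of -0.08 ± 0.08 (log2 of the fold change, log2FC, with its standard error) did not pass the test (FDR 0.448). WT means were similar, at 1422 on day 5 and 1468 on day 7, so the transcript level does not check the edit. Reads over the site were not examined here. The paper checked the edit in KO MEFs by an indel assay on Zfp266 cDNA and reported mostly out-of-frame insertions and deletions.

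Depth was alike across the compared libraries. The 6 KO libraries held between 28457930 and 39610939 counts, and counts were brought to a common scale by median-ratio size factors, which gives the normalised counts used throughout. The labelled cell state was checked by marker genes. All 10 of 10 markers of pluripotent cells rose from day 5 to day 7. Of 10 embryonic fibroblast markers 2 fell and none rose. Their summed level was 17082, 22713 and 16331 normalised counts at day 5 and 23382, 13504 and 8391 at day 7 in KO cells, against a mean of 452965 in KO MEFs. The 3 day 7 libraries therefore differed among themselves in fibroblast marker RNA by more than the days did, and replicate 1 held the most. In bulk RNA of this kind, fewer cells of a type and less RNA per cell cannot be told apart. Nor can RNA of the reprogramming cells be told from that of any cassette-free WT MEFs sorted along with them. This limit holds for all fibroblast genes below.

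Between day 5 and day 7 the KO cells changed 3040 of 21436 genes tested, or 14.2% (differentially expressed genes, DEGs, with FDR below 0.05 and log2FC beyond 1 in either direction, DESeq2). Above the fold threshold rises outnumbered falls: 1896 genes (8.84%) rose and 1144 (5.34%) fell, so 62.4% of DEGs were higher at day 7. This balance depends on the fold threshold, since on FDR alone 41.5% of genes passed, 4342 (20.3%) higher and 4562 (21.3%) lower. Counts in the gene lists below are to be read beside these shares of all genes tested. In 2928 of the 3040 DEGs (96.3%) the day 7 libraries did not overlap the day 5 libraries, compared with 57.4% of all genes tested. Separate day 5 and day 7 libraries were also required of genes named below by rank of rise or fall. Their separation is therefore no added support. The rises with the lowest FDR were those of Suz12, Tet1, Enpp3, Amt, Ranbp17, Jarid2, Apoe, Grhpr, Slc2a3 and Dppa4. The falls with the lowest FDR were those of Gucy2e, Clptm1l, Camk4, Aadac, Gnai1, Eif5a2, Spink2, Prodh, Jhy and Hpdl. With the threshold of 1 placed inside the test, so that a log2FC must differ significantly from 1 and not only from 0, 604 genes rose and 123 fell.

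The rises often began close to zero. At day 5, 788 of the 1896 risers (41.6%) had a mean below 10 normalised counts, compared with 21.2% of all genes tested, and 37 of these 788 reached a mean of at least 100 at day 7. The same day 5 libraries chose the risers, which favours genes low at day 5, so these shares are a description. Most risers had not arrived at the iPSC level. In 959 (50.6%) the KO iPSC mean was still more than 2-fold above the day 7 mean, in 610 (32.2%) the means were within 2-fold, and in 327 (17.2%) the iPSC mean was more than 2-fold lower. Over all genes tested these shares were 19.9%, 59.4% and 20.8%.

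Nearly all naive pluripotency factors rose. Of 19 listed factors 18 rose and none fell, with a median log2FC of 2.39, against a median of about 0 over all genes tested. Nanog, a core factor of the network, was at 207, 334 and 311 normalised counts at day 5 and at 1173, 1412 and 1103 at day 7 (log2FC 2.11 ± 0.15, FDR 9.7e-43). Tfcp2l1, a naive-state transcription factor that acts downstream of leukaemia inhibitory factor (LIF), was at 713, 1178 and 791 and then at 6498, 6794 and 5065 (2.78 ± 0.16, FDR 1.33e-64). Every day 7 library stood above every day 5 library for both genes, although the day 5 libraries of Tfcp2l1 were spread more widely. Esrrb, an orphan nuclear receptor of the same network, went from 1336, 1646 and 1377 to 4058, 4823 and 3826 (1.54 ± 0.11), and Zfp42 (Rex1), a standard marker of naive cells, from 665, 898 and 615 to 3759, 4252 and 3420 (2.39 ± 0.16). The steepest rise of the list was that of Gbx2, a homeobox factor of naive cells, from 0, 1.05 and 3.08 to 46.2, 56.9 and 58.1 (5.19 ± 0.92), although its exons overlap opposite-strand exons over 1608 bases. Prdm14, which shields naive cells from primed and germ-layer signals, rose from 5.72, 17.8 and 7.71 to 229, 252 and 189 (4.47 ± 0.33), and Klf2, a Krüppel-like factor of the ground state, from 45.8, 72.4 and 53.9 to 522, 494 and 379 (3.02 ± 0.27).

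Lin28a, an RNA-binding protein that blocks let-7 maturation, was the member that did not rise. It was at 7111, 7061 and 6979 at day 5 and at 3748, 4394 and 4358 at day 7, a log2FC of -0.76 ± 0.11 (FDR 2.04e-11) that passed the FDR and not the fold threshold. Sall4, a zinc finger factor of the network, rose by a log2FC of 1.06 ± 0.13, near the threshold, and its call was kept in 4 of 6 fits that each left out a KO library of these days.

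**Figure D1:**
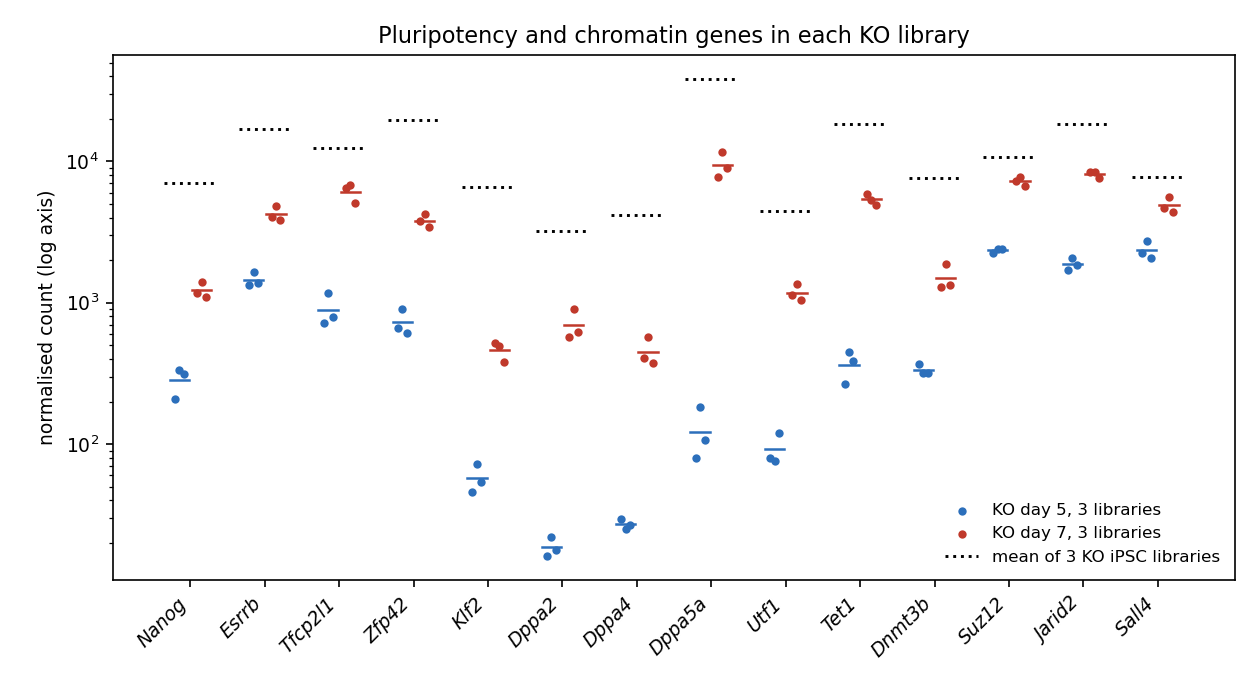
Normalised counts (y axis, log scale) of 14 pluripotency and chromatin genes in each KO library. Blue points are the 3 day 5 libraries, red points the 3 day 7 libraries, short bars their means and dotted lines the mean of the 3 KO iPSC libraries; in each gene the day 7 libraries sit above the day 5 libraries and below the iPSC mean.

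Most genes that mark late reprogramming also rose. Of 20 listed Dppa and late pluripotency genes 17 rose and none fell (median log2FC 3.13). Dppa5a, a small KH-domain protein of pluripotent cells and oocytes, was at 79.2, 183 and 106 at day 5 and at 7716, 11687 and 9023 at day 7, a 77.3-fold change (log2FC 6.27 ± 0.54, FDR 9.12e-29). Dppa2 and Dppa4, a pair of chromatin-bound partners encoded side by side on chromosome 16, rose from 16.2, 22 and 17.7 to 569, 900 and 621 (5.23 ± 0.35) and from 29.6, 25.2 and 27.0 to 408, 571 and 374 (4.05 ± 0.23). Replicate 2 was the highest day 7 library for all 3 genes, and no library of either day overlapped the other day. L1td1, Zfp296 and Tdh did not pass the fold threshold: Zfp296 was at a mean of 1156 at day 5 and 1305 at day 7, and Tdh, threonine dehydrogenase, at 7106 and 8118, while L1td1, an RNA-binding protein, went from 8055 to 15456 (log2FC 0.94 ± 0.08).

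The largest rises were of genes with almost no counts at day 5, several of them known from oocytes and the germline. Aire, the autoimmune regulator of the thymus, which is also transcribed in ESCs, had no count in any day 5 KO library and 163, 102 and 89.9 normalised counts at day 7, at least 42.7-fold higher when day 5 is set to a floor of 3 counts a library. Mep1b, a meprin metalloprotease subunit, had 2 counts in all at day 5 and 302, 464 and 257 normalised counts at day 7, a ratio of 567 with a counting interval of 157 to 4689 (95%, exact binomial). Khdc3, a member of the oocyte subcortical maternal complex, had 2 counts and then 201, 196 and 154, a ratio of 302 (83.4 to 2503). In these genes the day 7 libraries all stood far above day 5, as their choice by size of rise required. The width of the intervals comes from the few day 5 counts. Mageb16, an X-linked MAGE family gene, had 1 count and then 172, 213 and 117 (553, interval 98.8 to 21880), and its processed copy Mageb16-ps2 followed it (406, 72.5 to 16088), but reads of these near-identical sequences could have been split between them. Ooep, another member of the maternal complex, rose from 1.91, 1.05 and 1.54 to 123, 151 and 121 (log2FC 6.44 ± 0.70), and Dppa3 (Stella), a maternal factor that protects DNA methylation, from 2 counts in all to 194, 192 and 104 (ratio 268, 73.9 to 2221). Exons of Khdc3 and Aire overlap exons of neighbouring annotated genes, by 790 bases on the same strand and by 67 bases on the opposite strand, so part of their counts is uncertain.

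Genes of the primed epiblast and early lineages were also among the risers. Of 13 measured members 9 rose and none fell (median 2.97, and 6 with the replicate numbers as a block). Otx2, which directs the exit from the naive state, was at 0, 3.15 and 2.31 at day 5 and at 426, 484 and 283 at day 7 (log2FC 7.77 ± 0.73, FDR 2.14e-24). Nodal, a TGF-beta ligand of the epiblast, rose from 4.77, 17.8 and 9.25 to 210, 267 and 248 (4.55 ± 0.29), and Eomes, a T-box factor of the primitive streak and trophoblast, from 4.77, 7.34 and 5.39 to 80.3, 105 and 96.2 (4.02 ± 0.46). In each the 3 day 7 libraries lay close together and well above day 5. Fgf5, the classical primed marker, was at 0.954, 2.10 and 3.08 at day 5 and at 3.01, 4.38 and 3.63 at day 7, and was not called (FDR 0.436).

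Some of the chromatin regulators of ESCs rose. Suz12, the scaffold subunit of PRC2, had the lowest FDR of any rise: it was at 2260, 2415 and 2398 at day 5 and at 7243, 7806 and 6743 at day 7, a 3.08-fold change (log2FC 1.62 ± 0.06, FDR 2.04e-148). Jarid2, which recruits and stimulates the complex, went from 1715, 2057 and 1844 to 8442, 8474 and 7584 (2.13 ± 0.11, FDR 1.78e-82). Both genes showed narrow groups with a wide gap between them, although separate groups were a condition for naming them by rank. Mtf2 and Phf19, Polycomb-like accessory subunits, rose by 1.13 ± 0.08 and 3.52 ± 0.44, the latter from a mean of 6.16 to 72.0. Of 13 listed PRC2 genes these 4 rose and none fell, and on FDR alone 10 were higher and 1, Epop, was lower. The catalytic subunit Ezh2 was at 3074, 3249 and 3393 at day 5 and at 4045, 4612 and 4156 at day 7, a log2FC of 0.40 ± 0.07, and Eed, its histone-reading partner, had 0.64 ± 0.14; both passed the FDR and not the fold threshold. Exons of Suz12 overlap opposite-strand exons over 178 bases.

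Of 14 genes of DNA methylation 6 rose and none fell. Tet1, which oxidises 5-methylcytosine, was at 264, 446 and 386 at day 5 and at 5901, 5330 and 4923 at day 7, a 14.7-fold change (log2FC 3.88 ± 0.18, FDR 1.84e-96). Dnmt3l, the inactive cofactor of the de novo methyltransferases, rose from 8.58, 4.20 and 12.3 to 1201, 1186 and 713 (6.92 ± 0.53), and Dnmt3b, a de novo methyltransferase, from 368, 317 and 320 to 1289, 1865 and 1343 (2.16 ± 0.24). The day 7 libraries were clear of day 5 in all 3, with the lowest Dnmt3l value in replicate 3. Uhrf1, Zfp57 and Gadd45a also rose, by 1.21 ± 0.12, 1.88 ± 0.23 and 1.73 ± 0.24. Dnmt3a, the other de novo enzyme, went the other way without passing the fold threshold (means 5223 and 3559, log2FC -0.55 ± 0.17), and Dnmt1, the maintenance enzyme, was higher by 0.57 ± 0.14. Exons of Dnmt3l overlap opposite-strand exons over 871 bases, and whether the counting used strand is not given in the sources used here.

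Of 22 glycolysis genes 7 rose and none fell, the 7 being 3 transporters, the kinase Pdk1 and the enzymes Pfkm, Aldoc and Tpi1. Slc2a3 (GLUT3), a high-affinity glucose transporter, was at 3187, 3626 and 3391 at day 5 and at 12539, 16351 and 12200 at day 7 (log2FC 2.01 ± 0.11, FDR 3.41e-68). Slc2a1 (GLUT1) went from 1746, 1398 and 2502 to 11239, 13132 and 11094 (2.65 ± 0.17). Pdk1, a kinase that inhibits pyruvate dehydrogenase, went from 653, 636 and 876 to 3777, 4081 and 3540 (2.39 ± 0.14). Replicate 3 was the highest day 5 library for Slc2a1 and Pdk1, still far below day 7. The lactate exporter Slc16a3, Aldoc, Pfkm and Tpi1 rose by 2.74 ± 0.23, 3.23 ± 0.35, 1.79 ± 0.13 and 1.08 ± 0.08. Gapdh was at means of 27563 and 26818 and Eno1 at 44657 and 46611, with no call. Ldha, lactate dehydrogenase, was lower on FDR alone (means 40673 and 30525, -0.41 ± 0.09). Of 30 respiratory chain genes none was a DEG by DESeq2 or by edgeR, and 16 were lower and none was higher on FDR alone (at an unadjusted p below 0.05, 0 higher and 18 lower). Over all genes tested 21.3% were lower and 20.3% higher on FDR alone. The median log2FC of the respiratory chain genes was -0.19 in KO and in WT cells.

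Other leading risers belong to metabolism and transport. Enpp3, an ectonucleotidase, was at 21.0, 30.4 and 30.1 at day 5 and at 2133, 2150 and 1126 at day 7, a 66.3-fold change (log2FC 6.05 ± 0.29, FDR 3.02e-95). Amt, the aminomethyltransferase of the glycine cleavage system, rose from 143, 166 and 147 to 777, 858 and 747 (2.39 ± 0.12), and Grhpr, glyoxylate reductase, from 68.7, 59.8 and 75.5 to 379, 393 and 316 (2.40 ± 0.13). The groups were clear of each other in all 3 genes, as the naming rule required, and replicate 3 was the lowest at day 7. Apoe, a lipid carrier, went from 36.2, 35.7 and 47.0 to 866, 941 and 693 (4.38 ± 0.22), and it had a mean of 5457 in KO MEFs and 37808 in KO iPSCs, so that both reprogramming days lay below both ends. Ranbp17, an importin family member, rose from 168, 194 and 143 to 1188, 1166 and 999 (2.74 ± 0.14). A dip of this kind was frequent. Among risers 781 of 1896 (41.2%) had a day 5 mean more than 2-fold below both the KO MEF and the KO iPSC mean, against 10.3% of all genes tested, with the caution that the same day 5 libraries chose the risers.

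Of 14 listed feedback genes of the FGF-ERK pathway 5 rose, none fell and 9 had no call (median 0.84). Dusp6, a phosphatase of ERK and a common readout of its activity, was at 119, 176 and 110 at day 5 and at 1355, 1501 and 1305 at day 7 (log2FC 3.36 ± 0.41, FDR 6.55e-15). Etv5, an ETS factor induced by FGF signals, rose from 820, 1386 and 859 to 6822, 7856 and 6072 (2.76 ± 0.22), and Spry2, a feedback inhibitor, from 494, 544 and 498 to 1819, 2230 and 1674 (1.90 ± 0.17). None of these groups overlapped. Spred1 and Spry4, further inhibitors, rose by 1.5 ± 0.21 and 1.26 ± 0.41, and the ligand Fgf4 rose from 182, 364 and 321 to 1886, 2160 and 1698 (2.73 ± 0.19). Of 26 Wnt pathway genes 5 rose and 1 fell. Apcdd1, a membrane-bound Wnt inhibitor, Tcf7l1, the main TCF repressor of ESCs, and the target Axin2 rose by 2.22 ± 0.21, 1.93 ± 0.14 and 1.62 ± 0.35, as did the secreted antagonists Sfrp2 and Frzb, and the inhibitor Nkd2 fell (-1.65 ± 0.14, means 1200 and 383). Of 19 BMP pathway genes the ligand Bmp4 (3.19 ± 0.39), the inhibitor Smad7 (1.11 ± 0.19) and the low-expressed target Msx1, whose groups overlapped, rose and the receptor-regulated Smad9 fell (-1.78 ± 0.34), while the 4 Id genes, direct BMP targets, were not DEGs. Of 15 genes of LIF and STAT3 signalling Klf5 rose and Klf4 fell, and on FDR alone 5 were higher and 1 was lower. Klf4 is also a factor of the cassette, and its counts do not separate the cassette from the cells' own gene. Its call was lost without day 7 replicate 1 or without day 7 replicate 2. Of all genes tested 8.84% rose, against 6.67% of the LIF list, 15.8% of the BMP list and 19.2% of the Wnt list.

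Several of the falls with the lowest FDR were of genes high in the reprogramming cells and near 0 in both KO MEFs and KO iPSCs. Spink2, a serine protease inhibitor known from testis and blood progenitors, was at 3559, 3865 and 3834 at day 5 and at 1501, 1383 and 1569 at day 7 (log2FC -1.34 ± 0.09, FDR 1.14e-48). Its means were 15.1 in KO MEFs, 3074 at day 3 and 2.78 in KO iPSCs. Gucy2e, a membrane guanylate cyclase of photoreceptors, fell from 896, 810 and 938 to 182, 217 and 249 (-2.03 ± 0.12, FDR 2.96e-65), with 5.75 in KO MEFs, 761 at day 3 and 1.2 in iPSCs. Aadac, a liver esterase, fell from 903, 697 and 785 to 173, 131 and 181 (-2.30 ± 0.15), and Jhy, a gene of ciliated ependymal cells, from 782, 693 and 672 to 193, 206 and 233 (-1.76 ± 0.12). Both were near 0 in KO MEFs (means 0 and 0.706) and low in KO iPSCs (5.32 and 0.673), and at day 3 they stood at 1223 and 909. In all 4 genes no day 7 library reached a day 5 library, which was a condition for naming them. At day 7 every mean was still far above those of KO MEFs and KO iPSCs.

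The other leading falls had some level at either end. Camk4, a calcium-dependent kinase of neurons and lymphocytes, was at 712, 519 and 571 at day 5 and at 114, 67.4 and 107 at day 7 (log2FC -2.65 ± 0.17, FDR 1.3e-52). Clptm1l fell from 6931, 6231 and 6721 to 3129, 3086 and 3399 (-1.05 ± 0.07), Gnai1, an inhibitory G protein subunit, from 2456, 2411 and 2556 to 1111, 904 and 931 (-1.33 ± 0.09), and Eif5a2, a translation factor isoform, from 2099, 1706 and 2099 to 682, 616 and 743 (-1.53 ± 0.10). Prodh, proline dehydrogenase, fell from 2756, 2880 and 2852 to 984, 1043 and 1175 (-1.41 ± 0.09). None of these groups overlapped, which was a condition for naming these genes, and KO iPSC means ranged from 1.96 for Camk4 to 996 for Clptm1l. Hpdl fell from 2112, 2083 and 2032 to 931, 1008 and 1080 (-1.04 ± 0.07), a fold so near the threshold that the call was lost without day 7 replicate 1 (log2FC -0.99). The largest falls among genes with at least 100 normalised counts were those of Onecut3, a neural homeobox factor (202, 149 and 233, then 7.03, 9.63 and 37.2; -3.43 ± 0.50), Cyth4 (-2.65 ± 0.32), Camk4, the kinase Ptk6 (-2.64 ± 0.24) and Acan, the cartilage proteoglycan aggrecan (-2.59 ± 0.52). Across all fallers, 540 of 1144 (47.2%) had a day 5 mean more than 2-fold above both the KO MEF and the KO iPSC mean, against 9.4% of all genes tested, whereas 163 (14.2%, against 6.16%) lay on a fall from MEF to iPSC. The same day 5 libraries chose the fallers, so these shares are a description. At day 7 the fallers had not reached the iPSC level in most cases: the KO iPSC mean was more than 2-fold lower still in 664 (58.0%), within 2-fold in 321 and more than 2-fold higher in 159.

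**Figure D2:**
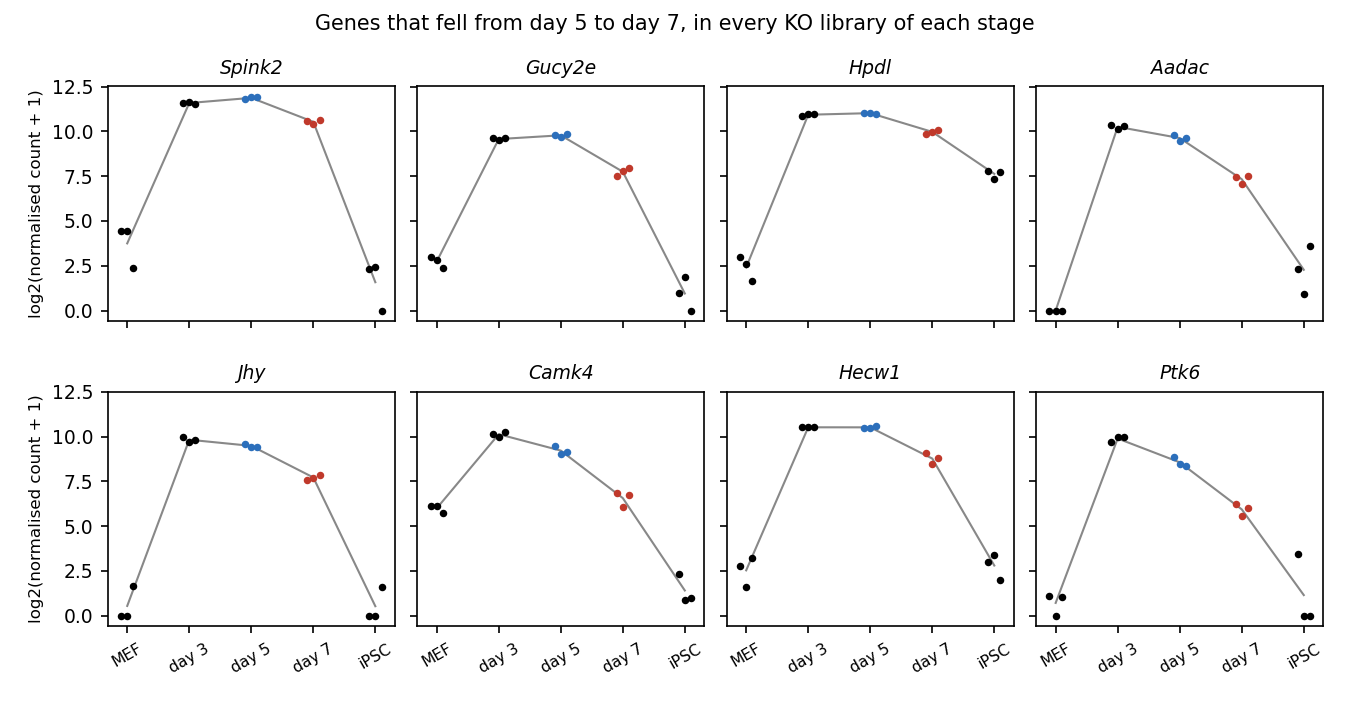
Each panel shows a gene that fell from KO day 5 to KO day 7 in all 15 KO libraries of 5 stages: MEFs, days 3, 5 and 7, and iPSCs (x axis). The y axis is log2 of the normalised count plus 1, points are libraries (day 5 blue, day 7 red) and the line joins the means of the 3 libraries of a stage; the genes are high from day 3 to day 5 and lower at day 7 and in iPSCs.

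The cassette's own factors were lower at day 7. Klf4 was at 28208, 28158 and 30539 at day 5 and at 12592, 12357 and 16717 at day 7 (log2FC -1.06 ± 0.18, FDR 4.95e-08), and Myc at 23536, 23808 and 26280 and then at 10525, 10488 and 14140 (-1.07 ± 0.19). Sox2 (-0.85 ± 0.17) and Pou5f1 (Oct4, -0.31 ± 0.11) were lower on FDR alone. Replicate 3 was the highest day 7 library for Klf4, Myc and Sox2, and both DEG calls were lost without day 7 replicate 1 or without day 7 replicate 2. The counts do not separate transcripts of the cassette from those of the cells' own genes. Mean Klf4 and Myc in KO iPSCs, which were selected to be independent of the transgene, were 3174 and 859. Pou5f1 was at 34494 there against 43867 at day 7.

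Fibroblast and epithelial genes moved in both directions. Of 20 mesenchymal transcription factors 4 fell and 2 rose (10%), where 5.34% of all genes tested fell and 8.84% rose. On FDR alone 7 were lower and 3 higher (median -0.52). Prrx1, a limb and craniofacial mesenchyme factor, fell from 794, 1046 and 1093 to 519, 431 and 362 (log2FC -1.16 ± 0.15), Twist2 from 142, 110 and 126 to 41.2, 28.9 and 34.5 (-1.86 ± 0.20), and Foxd1 and the low-expressed Snai2 fell by 1.4 and 1.39 on the log2 scale. Zeb1, a repressor of epithelial genes, and Tbx20 rose (1.19 ± 0.23 and 1.90 ± 0.40). Of 30 collagen and matrix genes Fbn1 (means 15598 and 4662, -1.74 ± 0.19), Vcan (8834 and 2934, -1.59 ± 0.15) and Dcn (3744 and 1491, -1.33 ± 0.20) fell and Fn1 rose (4438 and 17014, 1.94 ± 0.22). Col1a1, the main fibrillar collagen, was at 5365, 7795 and 5634 at day 5 and at 7911, 4837 and 2771 at day 7, overlapping groups in which replicate 1 was the highest at day 7, as it was for the summed fibroblast markers. Exons of Fbn1, Fn1 and Twist2 overlap opposite-strand exons over 2442, 424 and 1477 bases. The number of collagen and matrix genes called higher ranged from 1 to 4 as KO libraries were left out, with 4 without day 7 replicate 3 and 3 without day 7 replicate 2. Of 12 AP-1 factors none was a DEG by DESeq2 or by edgeR, and 3 were lower on FDR alone (at an unadjusted p below 0.05, 0 higher and 3 lower). Of 18 contractile genes 11.1% rose, the calponin Cnn2 (1.16 ± 0.28) and Lmod1, near the share over all genes tested, and the smooth muscle actin Actg2 fell (-1.17 ± 0.33).

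Of 23 epithelial genes 5 rose (21.7%, against 8.84% of all genes tested) and 1 fell (median 0.55). Cdh1 (E-cadherin) was already at 19833, 20560 and 19410 at day 5 and was at 18296, 17976 and 17042 at day 7, with no call (FDR 0.577). Its level was above the KO iPSC mean of 9340 on both days, while Krt18, a keratin of simple epithelia, rose from 300, 361 and 323 to 2093, 2322 and 1716 (log2FC 2.64 ± 0.51), Cldn6, Grhl2, Rab25 and Prss8 rose, and the splicing regulator Esrp2 fell (-1.15 ± 0.21). Genes described in reprogramming intermediates split: of 22 measured, 8 fell and 4 rose. Krt14, a basal keratin, fell from 9912, 9808 and 9509 to 2463, 4145 and 4164 (-1.44 ± 0.38), Krt6a and Krt16 fell by 1.09 and 1.26 on the log2 scale, and Cd44, a surface receptor lost on the way to pluripotency, went from 6744, 6627 and 6996 to 2971, 2789 and 3302 (-1.17 ± 0.24). Ly6a (Sca-1) and Ly6c1, surface antigens of partly reprogrammed cells, rose from 1378, 2198 and 1790 to 8371, 8306 and 6713 (2.12 ± 0.39) and from 182, 290 and 245 to 1348, 1231 and 1090 (2.36 ± 0.25), far above their KO iPSC means of 46.5 and 0.289. The day 5 and day 7 libraries of all 4 of these surface and keratin genes were separate.

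**Figure D3:**
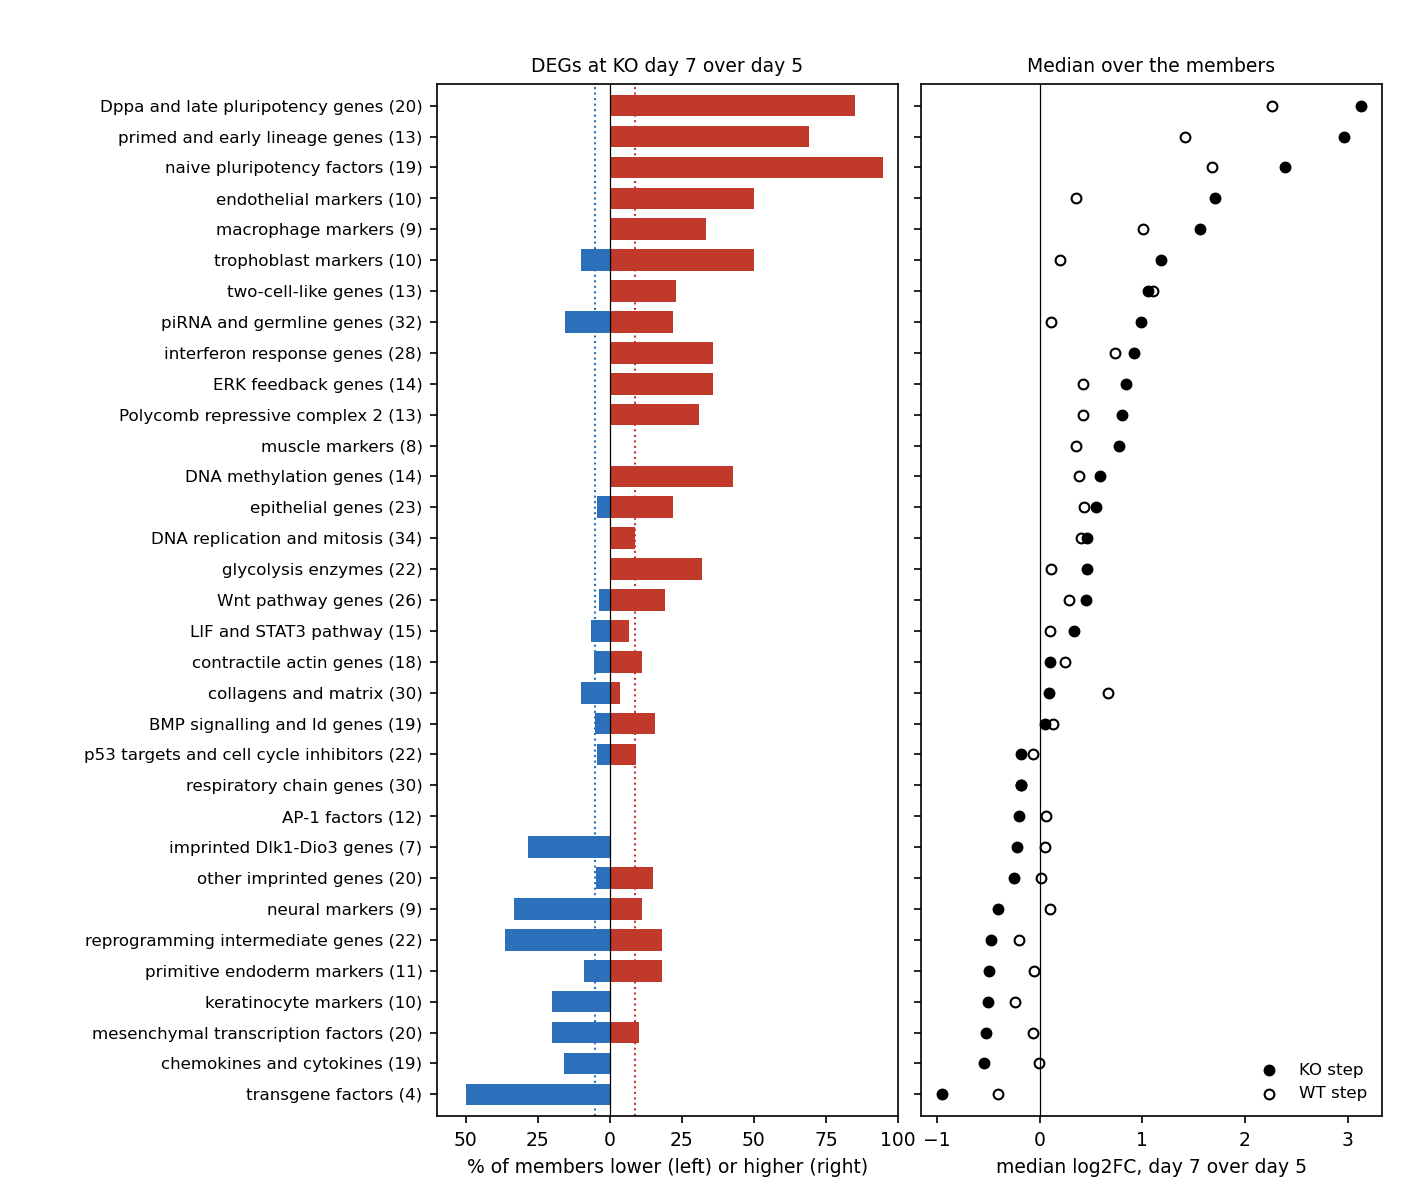
Gene lists, with the number of measured members in brackets, ordered by median. Left: percent of members that rose (red) or fell (blue) from KO day 5 to KO day 7, with dotted lines at the shares over all genes tested (8.84% and 5.34%). Right: median log2FC of the members in the KO step (filled) and in the WT step (open); the 3 pluripotency and early lineage lists are at the top and the cassette factors at the bottom.

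piRNA and germline genes moved in both directions. Of 32 measured members 7 rose and 5 fell (6 and 3 with the replicate numbers as a block, and 3 fell without day 5 replicate 1 or without day 7 replicate 2). Dnd1, a germ cell RNA-binding protein, rose from 14.3, 22 and 11.6 to 70.3, 63.0 and 79.9 (log2FC 2.19 ± 0.29), and Stag3, a meiotic cohesin subunit, from 17.2, 7.34 and 9.25 to 37.2, 51.6 and 47.2 (2.01 ± 0.39). Tdrd7, a Tudor protein of germ granules, fell from 1051, 877 and 1057 to 467, 462 and 507 (-1.06 ± 0.10), and Tdrd5, Tdrd6, Tdrd9 and Slc25a31 fell from day 5 means below 60. Rpl10l, Tex11, Tdrd12 and Nanos3 rose from day 5 means of 0.35, 0.575, 5.6 and 2.4 to 25.6, 9.43, 26.8 and 27.6. Piwil2, a piRNA-binding protein and the member with the most counts, was at 1694, 2092 and 1595 at day 5 and 2810, 2721 and 1801 at day 7. Its groups overlapped and it was not called (0.45 ± 0.24, FDR 0.118), although its day 7 mean of 2444 was above the KO iPSC mean of 455. Mael, counted among the risers, had no count at day 5 and 0, 2.63 and 3.63 normalised counts at day 7, at or near the floor.

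Promoter windows from RefSeq (GRCm38.p6, 250 bases before to 50 after the start) were searched for 3 short motifs on both strands: CACGTG, an E-box, TTCCCGC, an E2F-like element, and GGGTGGG, a KLF-like element. The windows of the leading riser and of a germline gene that rose and another that fell are shown with the motifs in capitals, written 5′ to 3′ on the gene's strand:
Suz12 (chr11:79992856-79993155, plus strand): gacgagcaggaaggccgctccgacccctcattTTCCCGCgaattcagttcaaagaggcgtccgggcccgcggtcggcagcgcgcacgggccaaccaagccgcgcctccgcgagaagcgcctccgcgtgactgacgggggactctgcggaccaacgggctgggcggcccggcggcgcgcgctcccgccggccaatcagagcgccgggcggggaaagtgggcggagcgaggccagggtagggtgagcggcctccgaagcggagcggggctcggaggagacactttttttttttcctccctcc
Stag3 (chr5:138280259-138280558, plus strand): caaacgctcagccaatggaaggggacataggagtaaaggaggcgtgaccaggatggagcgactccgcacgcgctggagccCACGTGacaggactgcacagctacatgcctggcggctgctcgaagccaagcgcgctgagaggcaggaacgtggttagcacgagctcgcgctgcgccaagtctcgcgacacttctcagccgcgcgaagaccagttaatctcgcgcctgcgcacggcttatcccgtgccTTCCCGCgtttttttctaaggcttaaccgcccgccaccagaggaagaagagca
Tdrd9 (chr12:111971309-111971608, plus strand): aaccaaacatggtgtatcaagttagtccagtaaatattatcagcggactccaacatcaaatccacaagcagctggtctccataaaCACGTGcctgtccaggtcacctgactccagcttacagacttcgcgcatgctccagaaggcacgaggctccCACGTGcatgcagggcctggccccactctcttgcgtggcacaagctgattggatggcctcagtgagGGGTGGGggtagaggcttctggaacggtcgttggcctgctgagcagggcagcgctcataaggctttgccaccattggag
The E-box was in a window of 14 of the 27 germline genes with a window (51.9%), against 8.09% of 27025 genes, and TTCCCGC in 9 (33.3%, against 5.29%). It did not mark a direction: it was present in 2 of 5 germline risers with a window, in 2 of 4 fallers and in 10 of 18 members with no call. Among the named risers 11 of 15 had a window, and CACGTG was in 0, TTCCCGC in 2 and GGGTGGG in 3 of these. Among the named fallers 10 of 14 had a window, with 2, 2 and 3 in the same order. GGGTGGG was in a window of 19.4% of all genes. The motifs are matches of letters and say nothing of binding.

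Most cell cycle genes were slightly higher on FDR alone. Of 34 genes of DNA replication and mitosis 27 were higher and 1 was lower on FDR alone, with a median log2FC of 0.46. Over all genes tested 20.3% were higher and 21.3% lower on FDR alone. Only Mcm3, a helicase subunit, Tk1, thymidine kinase, and Ccne1, cyclin E1, passed the fold threshold (1.05, 1.37 and 1.59). This is 8.82% of the list, against 8.84% of all genes tested. Of 22 p53 targets and cell cycle inhibitors 2 rose (9.09%) and 1 fell, near the shares over all genes tested (8.84% and 5.34%). Cdkn1b (p27), a brake on cyclin-dependent kinases, was at 111, 133 and 145 at day 5 and at 657, 682 and 525 at day 7 (2.26 ± 0.22, FDR 2.61e-22). Pmaip1 (Noxa), a BH3-only protein, rose from 325, 327 and 336 to 764, 846 and 728 (1.24 ± 0.30), and the death receptor Fas fell (-1.12 ± 0.21), a call lost without day 5 replicate 3. Cdkn1a (p21), a p53 target, was at 18324, 17879 and 18211 and then at 11227, 10666 and 11974 (-0.68 ± 0.14), below the fold threshold although its groups were far apart.

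Of 28 interferon response genes 10 rose and none fell (median 0.92). Oas2 rose from 1.91, 9.44 and 3.08 to 98.4, 115 and 66.3 (log2FC 4.34 ± 0.48), and Ddx58 (RIG-I), a sensor of viral RNA, from 202, 232 and 211 to 621, 753 and 539 (1.57 ± 0.17). B2m, the light chain of MHC class I, was lower on FDR alone (-0.92 ± 0.21). Of 19 measured chemokine and cytokine genes 3 fell and none rose, led by Ccl7 (1101, 938 and 859, then 344, 341 and 339; -1.5 ± 0.15). Of 20 imprinted genes outside the Dlk1-Dio3 cluster 3 rose (15%, against 8.84% of all genes tested), 1 fell and 16 had no call. On FDR alone 4 were higher and 6 lower (median -0.25). Peg10, a retrotransposon-derived gene, rose from 1492, 1561 and 2120 to 6542, 6881 and 7838 (2.04 ± 0.22), and Zdbf2 and Sgce rose. Igf2, a fetal growth factor, fell from 713, 544 and 496 to 277, 143 and 172 (-1.57 ± 0.28). Of 7 genes of the Dlk1-Dio3 cluster Dlk1 and Begain fell (-1.81 ± 0.35 and -1.44 ± 0.28), and the maternally expressed RNAs Meg3, Rian and Mirg had overlapping groups and no call.

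Markers of other cell types gave mixed counts. Of 10 endothelial markers 5 rose: Tie1, an endothelial receptor kinase, from 261, 354 and 274 to 2798, 2604 and 2669 (log2FC 3.19 ± 0.20), Pecam1 (2.50 ± 0.29), which ESCs also express, Robo4 (4.6 ± 0.57), Esam and Kdr. Kdr had overlapping groups, and 3 of the 5 calls were left without day 5 replicate 3 or without day 7 replicate 2. Of 10 measured trophoblast markers Elf5 (13.4, 32.5 and 27.0, then 269, 181 and 179), Eomes, Tfap2c, Hand1 and Gcm1 rose and Ascl2 fell. Elf5 had no count in KO iPSCs, Gcm1 had none at day 5 and at most 5.25 normalised counts at day 7, and the groups of Hand1 overlapped. Of 9 macrophage markers Cd68, a lysosomal protein, rose from 152, 161 and 160 to 457, 453 and 478, Fcgr3 and Cd14 rose from low levels, and the leukocyte marker Ptprc was at means of 9.68 and 7.89 and the myeloid adaptor Tyrobp at 0.35 and 1.8, with no call. Of 9 measured neural markers 3 fell and 1 rose. Tubb3, neuronal tubulin, fell from 11908, 10055 and 10960 to 3316, 2776 and 3790 (-1.74 ± 0.22), Dcx fell and Nes rose. Of 10 keratinocyte markers Krt14 and Ivl fell, of 11 measured primitive endoderm markers Apoe and Sox17 (1 count in all at day 5) rose and Lamb1 fell, and of 8 muscle markers none was called by DESeq2 or by edgeR (1 was higher on FDR alone; at an unadjusted p below 0.05, 2 higher and 0 lower). Of 13 cleavage-stage genes Pramef12, Gm4340 and Tcstv3 rose, Tcstv3 with overlapping groups, and the means of Zscan4c, Zscan4d and Zscan4f reached at most 3.3 at day 7.

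The position of each library between KO MEFs and KO iPSCs was taken over 11729 genes that differed between those groups, with 0 at the KO MEF mean and 100 at the KO iPSC mean. The day 5 KO libraries stood at 47.8, 47.6 and 48.0 and the day 7 KO libraries at 55.8, 58.3 and 58.6. The groups did not overlap, the step was 9.78, and the two-sided exact permutation test gave p = 0.1, the smallest that 3 against 3 libraries allow. The gain came from the genes higher in iPSCs than in MEFs: over 5766 of these the position moved from 38.6 ± 0.468 to 56.8 ± 0.534 (SD, n = 3), with the same exact permutation p of 0.1. Over the 5963 genes lower in iPSCs it was 55.4 ± 0.731 at day 5 and 58.2 ± 2.53 at day 7 (SD, n = 3; exact permutation p = 0.3). In the WT libraries of the same days the gain also came from the genes higher in iPSCs. The WT position moved by 12.01 over these genes and by -2.07 over the genes lower in iPSCs. Over all 11729 genes the WT position went from 43.8 ± 0.707 to 48.1 ± 0.581 (SD, n = 3), a step of 4.26. The KO step exceeded it by 5.51. By same-numbered libraries the steps were 7.99, 10.7 and 10.6 in KO and 4.01, 4.19 and 4.59 in WT cells, which did not overlap, and the two-sided exact permutation of genotype over these 6 steps gave p = 0.1, the smallest it allows. This test was chosen after the results were read. The planned permutation of genotype within each day gave p = 0.23.

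The WT step from day 5 to day 7 shares no library with the KO step and served as its comparison. It held 1149 DEGs (5.81% of 19773 tested), 938 higher (4.74%) and 211 lower (1.07%), and 24.1% of genes passed on FDR alone. Of the 1896 KO risers 714 also rose in WT cells, which is 37.7% of the KO risers and 76.1% of the WT risers, and of the 1144 KO fallers 178 also fell, 15.6% of the KO and 84.4% of the WT fallers. In each direction 1 gene was a DEG of opposite sign. Where both steps were tested, 95.3% of 1796 KO risers and 95.7% of 1083 KO fallers had the same sign in WT cells, against 80.0% of all 19773 genes. The KO risers had a median log2FC of 1.90 in KO and 1.05 in WT cells, and the KO fallers -1.42 and -0.64, where the choice by KO libraries favours the larger KO value. The WT risers, chosen by the WT libraries, had a median of 1.90 in KO and 1.67 in WT cells. No size of the difference is read from these medians.

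The difference between the steps was tested by an interaction term, and 270 of 16447 genes (1.64%) passed: 193 (1.17%) had a higher and 77 (0.468%) a lower step in KO cells. On FDR alone 5.84% of genes passed, 2.83% with a higher step. Of the 193, 186 rose in KO cells and 65 in WT cells, and of the 77, 60 fell in KO cells and 6 in WT cells. These numbers are less firm than those of the KO step, since edgeR gave 131 and 25 and, with the threshold inside the test, 1 and 0. Pfkm, the muscle isoform of phosphofructokinase, had the lowest FDR of the higher steps. Its KO libraries were at 351, 295 and 364 at day 5 and at 1166, 1346 and 978 at day 7, while the WT means were 538 and 563 (difference of the steps 1.72 ± 0.18 on the log2 scale, FDR 7.84e-17). By these means WT cells held more Pfkm than KO cells at day 5 and less at day 7, which was not tested within a day. Klf5, a Krüppel-like factor of naive cells and early embryos, rose in KO cells from 371, 424 and 410 to 1007, 1247 and 1086, with WT means of 399 and 432 (1.36 ± 0.15, FDR 1.69e-15). Jarid2 had a log2FC of 2.13 ± 0.11 in KO and 0.92 ± 0.11 in WT cells (difference 1.21 ± 0.15), and Pdzd4 and Apoe had differences of 2.66 ± 0.35 and 2.38 ± 0.32. Exons of Pfkm and Pdzd4 overlap other annotated exons.

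Genes of the pluripotency lists stood on both sides of this comparison. Utf1, a chromatin-associated ESC factor, rose in KO cells from 80.1, 75.5 and 120 to 1126, 1353 and 1053, and in WT cells from a mean of 144 to 293 (difference 2.64 ± 0.37, FDR 1.9e-09). Dnmt3b and Tbx3, a T-box factor of naive cells, were also called higher in the KO step (1.86 ± 0.34 and 1.49 ± 0.29). Tcl1, a coactivator of AKT, and Fgf4 had the lower step in KO cells (-2.31 ± 0.46 and -1.14 ± 0.30): Tcl1 went from 152, 307 and 353 to 731, 980 and 979 in KO cells and from a mean of 25.3 to 415 in WT cells. Tcl1 was thus higher in KO cells than the WT mean on both days, a difference within a day that was not tested. For both genes the WT cells had the larger fold. Nanog, Esrrb, Tfcp2l1 and Zfp42 had differences between -0.52 and 0.39 that did not pass the test. Among falling genes Gucy2e (-1.04 ± 0.16), Trabd2b (-1.06 ± 0.15), Hecw1 (-1.06 ± 0.18), Ogfrl1 (-1.08 ± 0.21) and the prostaglandin receptor Ptger3 (-1.35 ± 0.27) had the lowest FDRs of the lower steps. In KO cells Ptger3 fell from 466, 384 and 471 to 68.3, 53.4 and 113, and in WT cells from a mean of 779 to 352. The differences of Gucy2e, Trabd2b, Hecw1 and Ogfrl1 lie so near the fold threshold that they passed it in only part of the fits that left out a library.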

How the data were processed

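RNA-seq libraries were made by the authors with a stranded poly(A) kit from sorted cells and read as single ends. The authors trimmed reads with Cutadapt, aligned them to GRCm38 with STAR and counted them per gene with Rsubread. The deposited values are raw counts per gene for 36 libraries. The annotation release and the strand setting of the counting are not given in the sources used here. Library preparation dates, which the authors treated as a batch in their plots, are not in the labels, so batch could not be entered. Symbols were matched to 99.8% of 21442 gene IDs.

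Counts were fitted with DESeq2 1.42.0 (R 4.3.3) over all 36 libraries with a factor of 12 groups, median-ratio size factors, default independent filtering and no shrinkage, and contrasts were tested by the Wald test with Benjamini-Hochberg FDR. DEGs had FDR below 0.05 and a log2FC beyond 1 in either direction. The difference between the KO and WT steps was an interaction contrast of the same fit. edgeR 4.0.16 (quasi-likelihood, TMM), other filters, scalings and sample sets, a replicate block and leaving out each library were alternatives. On simulated counts of the KO step (21265 genes, 100 changed at each size) DESeq2 recovered 94 genes at a log2FC of 1.5 and 97 at 3, with 8 false calls.

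Named genes were Zfp266, the 10 risers and 10 fallers with the lowest FDR and the 5 largest of each with at least 100 normalised counts, non-overlapping libraries and a named symbol, the 5 lowest FDRs of the interaction in each direction, and members of the 33 lists. Members and lists were chosen with earlier results of these data known. No 2 compared libraries agreed within sampling noise. Deviations of same-numbered libraries correlated across 13705 genes between day 5 and day 7 (r = 0.12, 0.22 and 0.28 in KO, 0.34, 0.21 and 0.30 in WT cells), so the numbers were taken to pair the libraries; this is a hint from the data, since the labels do not say what a number marks. Counting intervals cover counting error only. Some list members are not reported here. The planned permutation of genotype within each day, for the difference of the position steps, gave p = 0.23. It was set aside because KO and WT libraries already differed on both days. A permutation over same-numbered steps, chosen after the results were read, replaced it.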

Additional observations from a re-analysis of the deposited data

Results flagged for a closer look

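These genes are among those named by rank above. Their change from day 5 to day 7 differed between KO and WT cells by the interaction test, KO step minus WT step. The test was by DESeq2, with FDR below 0.05 and a difference beyond 1 on the log2 scale. Other genes of the 270 that passed are not listed. Genes named for their KO step were chosen by the same KO libraries, which favours a large difference. Those named by the interaction were chosen by this same test. The step was higher in KO cells for Enpp3 (2.40), Jarid2 (1.21), Apoe (2.38), Grhpr (1.25), Dppa4 (1.37), Pfkm (1.72), Klf5 (1.36) and Pdzd4 (2.66). It was also higher for Mageb16 (4.76) and Mageb16-ps2 (4.90), a pair that can share reads and that had 1 count in all in the day 5 KO libraries. The step was lower in KO cells for Gucy2e (-1.04), Camk4 (-1.04), Ptk6 (-1.25), Trabd2b (-1.06), Hecw1 (-1.06), Ogfrl1 (-1.08) and Ptger3 (-1.35). The FDR ranged from 7.84e-17 for Pfkm to 0.0253 for Dppa4.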

How the results depend on the processing

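With the log2 threshold of 1 inside the test the KO step held 727 DEGs (604 higher, 123 lower) and the difference between the KO and WT steps held 1 gene (1 higher, 0 lower), since that test asks more of each gene. edgeR gave 3056 DEGs for the KO step, but 156 for the difference, of which 25 were lower. The cause was not tested. With the spread estimated from only the compared KO libraries of day 5 and day 7, the KO step held 2748 DEGs. The KO step held between 2660 and 3069 DEGs as single libraries were left out (1655 to 1882 higher, 910 to 1187 lower). The difference held between 161 and 362 genes (126 to 225 higher, 35 to 137 lower), with 161, 126 and 35 without day 7 KO replicate 2, 137 lower without day 7 KO replicate 3 and 43 lower without day 5 KO replicate 3. With the replicate numbers as a block, which pairs the libraries, the KO step held 1614 higher and 869 lower genes and the difference 202 and 103, and the block changed none of 40 changes and differences of the genes named by rank. Among the lists it called 6 primed genes higher (9 without it) and 3 germline genes lower (5 without it). The position step ranged from 9.03 to 9.92 over other scalings, gene sets and ends, and from 9.26 to 10.7 as single libraries were left out; its excess over WT then ranged from 4.99 to 6.39. Of 580 checks of these 40 values, which leave out list members named only as such, none reversed and 27 lost their call, 12 of these with the threshold inside the test. Gucy2e, Trabd2b, Hecw1 and Ogfrl1 lost the call of a difference when single libraries were left out. Genes near 0 at day 5 limit what can be read from fold sizes, since a few counts set them.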
